A study of Mus musculus with 12 samples.

Results

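The type I interferon response genes described here are 41 mouse genes listed by symbol as sensors, transcription factors and effectors of the interferon response, of which 40 had a row in the deposited expression table of 23354 symbols. No level filter was used to choose them, and where a symbol had several rows the one with the highest mean was taken. Ifi27, a small mitochondrial membrane protein gene, had no row under that symbol, so it is not counted; the row named Ifi27l1, which RefSeq lists as an older symbol of Ifi27, is given separately. The mean over the 12 libraries reached 0.5 FPKM, the level required for testing, in 28 of the 40 members, and the other 12 members lay below it. FPKM scales fragments by transcript length and by library size, so levels of different genes can be set side by side on it.

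Cortical RNA was sequenced from C57BL/6 mice at postnatal day 16 to ask what loss of a DNA methyltransferase in the oligodendrocyte lineage does to gene expression. The Dnmt1 line comprised 3 conditional knockout mice (Olig1cre/+;Dnmt1flox/flox, called Dnmt1 CKO) and 3 littermate controls (Olig1+/+;Dnmt1flox/flox), and the Dnmt3a line comprised 3 Olig1cre/+;Dnmt3aflox/flox mice (Dnmt3a CKO) and 3 littermate controls that were Olig1+/+;Dnmt3aflox/flox. All mice of a line, controls included, carried the floxed alleles, and cre sat in the Olig1 locus, so a CKO mouse also differed from its control by 1 cre-bearing Olig1 allele. Recombination was thus directed to Olig1-expressing cells and their progeny, while the RNA came from whole cortex with its neurons, glia and vessels. The libraries are labelled as biological replicates.

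Type I interferons are secreted by cells that sense foreign or misplaced nucleic acid through receptors such as RIG-I, MDA5, cGAS and Toll-like receptors. They bind the receptor formed by IFNAR1 and IFNAR2, whose kinases JAK1 and TYK2 phosphorylate STAT2. With IRF9 it joins a complex that binds interferon-stimulated response elements in the promoters of its target genes, many of which restrict viruses, degrade RNA or amplify the sensing itself. In brain, microglia, astrocytes, endothelium and oligodendrocytes can all respond.

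The response element is a pair of GAAA blocks, and its core GAAANNGAAA, searched on both strands from 250 bases before to 50 bases after the RefSeq start sites, was present in 15 of the 31 members with an entry (48.4%), against 3.99% of all 27025 genes with one. The core of the gamma-activated site, TTCNNNGAA, was present in 8 of the 31 (25.8%) against 9.55% of all genes. Runs of these blocks are shown for 2 members that rose in Dnmt1 CKO cortex (Isg15 and Bst2), 2 that were tested and did not pass (Ifit3 and Stat2) and 2 that lay below 0.5 FPKM (Ifit1 and Oas1a). Sequences are RefSeq's on GRCm38.p6, the assembly also named mm10, and each is written 5′ to 3′ on the strand of the gene, with the matches to GAAANNGAAA or its reverse complement in capitals.
Isg15, chr4:156200863-156200908, minus strand: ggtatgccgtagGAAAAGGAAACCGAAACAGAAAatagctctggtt
Bst2, chr8:71537575-71537614, minus strand: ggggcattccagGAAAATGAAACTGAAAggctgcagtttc
Ifit3, chr19:34583361-34583428, plus strand: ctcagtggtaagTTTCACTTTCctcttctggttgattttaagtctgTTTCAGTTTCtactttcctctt
Stat2, chr10:128270264-128270297, plus strand: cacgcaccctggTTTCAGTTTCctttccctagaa
Ifit1, chr19:34640773-34640825, plus strand: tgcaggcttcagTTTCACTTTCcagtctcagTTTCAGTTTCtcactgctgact
Oas1a, chr5:120907526-120907557, minus strand: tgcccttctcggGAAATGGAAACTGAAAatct
Isg15 held 3 overlapping matches in the 46 bases shown, starting at -78, -72 and -66 from the start site. Bst2 and Oas1a held 2 each, and Ifit1 and Ifit3 2 separated ones, whereas Stat2 held 1. A match here is a run of letters and not a shown binding site.

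In Dnmt1 CKO cortex, 10 of the 28 tested members rose and none fell (limma, Benjamini-Hochberg adjusted, 10% FDR), whereas 0.85% of the 14115 rows tested rose. They were the RNA sensors Ddx58 and Ifih1, the transcription factor Irf7, the ubiquitin-like modifier Isg15, the synthetase-like Oasl2, the membrane factors Bst2 and Ifitm3, the ADP-ribosyltransferase Parp9, and Rtp4 and Lgals3bp. Their fitted differences ran from 0.45 to 1.44 in log2(FPKM + 0.1), a scale on which low genes change by less than they do in FPKM itself. Of the 28, 18 had an unadjusted p under 0.05, all 18 higher in CKO, against 4.61% of all rows. The median difference over the 28 was 0.32, and over all rows it was -0.02. These counts carry a limit, since Irf7, Oasl2 and Mx2 reached the 0.5 FPKM mean only through the Dnmt1 CKO libraries, and 8 of the other 25 tested members were called. A further limit is that the members were chosen with earlier results of these data known. The shares over all rows, here and below, are therefore set beside the counts as a description and not as a test of the members as a set.

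Counted without any level filter, 26 of the 40 members had all 3 Dnmt1 CKO libraries above all 3 controls and none had them below, whereas 6.92% of the 20653 rows with a mean above 0 had the CKO libraries above. With all 20653 rows tested, 9 of the 40 members were called higher, against 0.828% of rows. Of these 9, 7 were also called with the filter, and Parp14 and Ifi44 were added. Ifih1, Irf7 and Parp9 no longer passed in that fit. Each Dnmt1 CKO library showed the shift, as the median over the 40 members of the difference from the mean of the line's controls was 0.46, 0.44 and 0.47 (log2) in CKO replicates 1, 2 and 3. In bulk cortex a higher value can come from more RNA per cell or from more of the cells that express the gene, and these cannot be told apart.

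**Figure D1:**
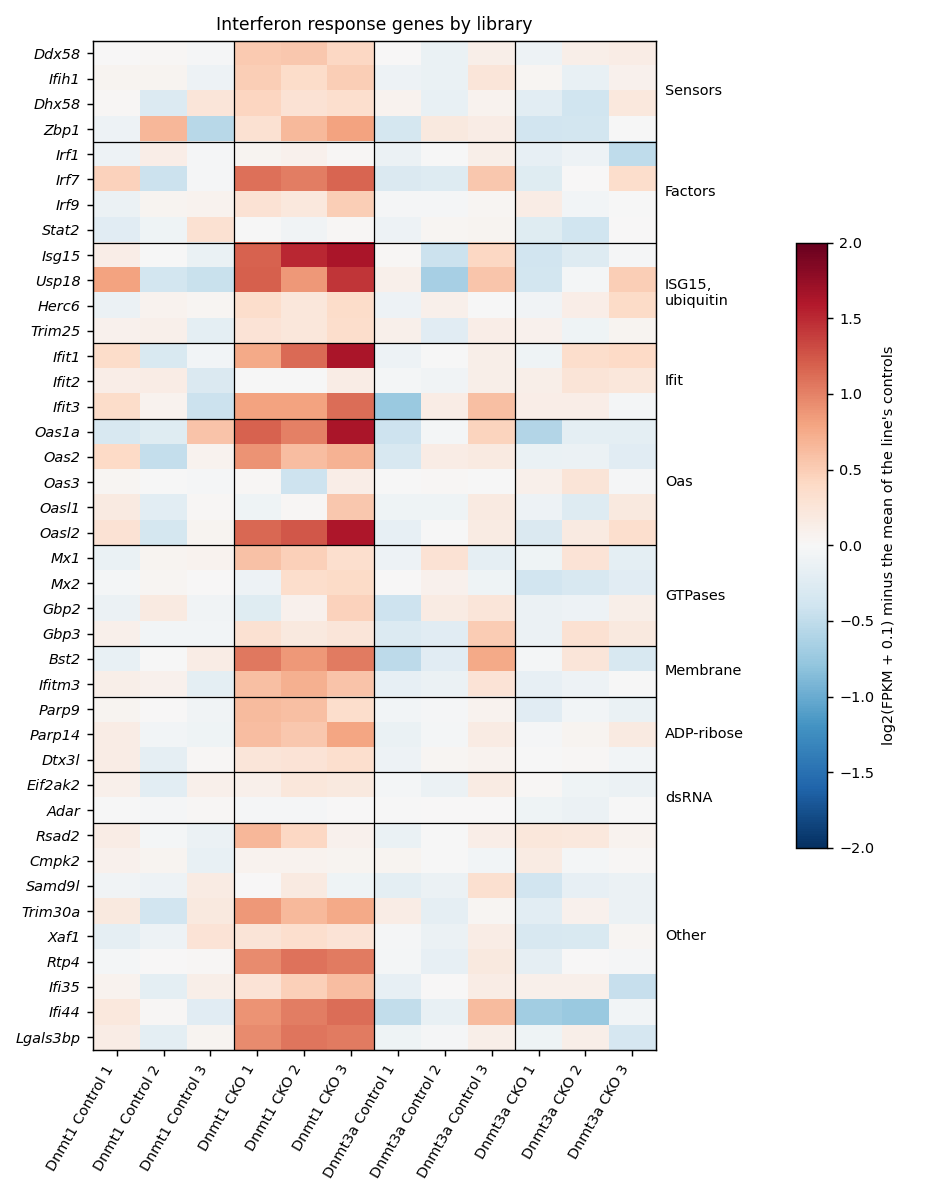
Heat map of the 40 members (rows, grouped by role) in the 12 libraries (columns); colour gives log2(FPKM + 0.1) minus the mean of the same line's 3 controls, red higher and blue lower. The 3 Dnmt1 CKO columns are mostly red, with medians of 0.44 to 0.47, while the 3 Dnmt3a CKO columns have medians of -0.11 to -0.01; in the Dnmt3a line control replicate 3 is the reddest column, with a median of 0.14.

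The sensors recognise viral or misplaced nucleic acid. Ddx58, which encodes RIG-I, a sensor of short and 5′-triphosphate RNA, measured 0.772, 0.781 and 0.756 FPKM in the Dnmt1 controls and 1.15, 1.16 and 1.05 FPKM in Dnmt1 CKO, a difference of 0.49 (SE 0.07, adjusted p = 0.0249). Ifih1, which encodes MDA5, a sensor of long double-stranded RNA, measured 0.599, 0.594 and 0.524 FPKM in controls and 0.844, 0.771 and 0.843 FPKM in CKO, a difference of 0.45 (SE 0.08, adjusted p = 0.0520). The groups did not overlap for either gene. Dhx58, the regulator of these receptors also called LGP2, lay below the filter at 0.202 to 0.330 FPKM in controls and 0.346 to 0.389 FPKM in CKO, again without overlap. Zbp1, a sensor of left-handed nucleic acid, was at 0.190 FPKM or less in all 6 libraries and its groups overlapped.

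Among the transcription factors, Irf7 rose. Irf7, the factor that amplifies interferon production, measured 0.701, 0.331 and 0.469 FPKM in controls and 1.15, 1.08 and 1.20 FPKM in CKO, a difference of 1.10 (SE 0.22, adjusted p = 0.0923). The factors that form the receptor's own complex differed less: Irf9 measured 2.74, 3.11 and 3.15 FPKM in controls and 3.69, 3.47 and 4.24 FPKM in CKO (0.33, SE 0.10, adjusted p = 0.215). Stat2, the most abundant of the 4, measured 3.68, 4.06 and 5.33 FPKM in controls and 4.28, 4.11 and 4.36 FPKM in CKO, and the CKO values fell inside the control range (-0.02, SE 0.14). Irf1, a factor induced by many cytokines, differed by 0.06 (SE 0.08).

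Isg15, a small protein that is secreted and also conjugated to other proteins, had the largest fitted difference of the 28 tested members. The gene lies at chr4:156199424-156200818 on the minus strand (GENCODE, GRCm38), just downstream of the sequence shown. It measured 1.19, 1.07 and 0.979 FPKM in controls and 2.56, 3.26 and 3.56 FPKM in CKO, a difference of 1.44 (SE 0.14, adjusted p = 0.00788). The lowest CKO value stood well above the highest control value, and the mean was 2.89-fold higher. The protease that removes Isg15 from its targets, Usp18, lay below the filter at 0.581, 0.204 and 0.187 FPKM in controls and 0.795, 0.616 and 0.952 FPKM in CKO. Its groups did not overlap, but the controls spread widely. Herc6, the mouse ligase for Isg15, and Trim25, a ubiquitin ligase that acts on RIG-I, each had all CKO values above all controls without passing the threshold (0.32, SE 0.08, adjusted p = 0.176 and 0.28, SE 0.10, adjusted p = 0.281).

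The Ifit proteins bind foreign RNA and block its translation. Neither of the 2 tested genes of the family passed in limma, and 1 had an unadjusted p under 0.05. Ifit1, Ifit2 and Ifit3 lie in the same stretch of chromosome 19, from 34550694 to 34650009. Ifit3 measured 1.54, 1.23 and 0.841 FPKM in controls and 2.11, 2.12 and 2.65 FPKM in CKO (0.91, SE 0.22, adjusted p = 0.142), without overlap; 51.2% of the 50-base words of its transcripts recur in another gene, chiefly Ifit3b, so the counting could have split reads between them. The row I830012O16Rik, which RefSeq lists as an older symbol of Ifit3b and which is no member, measured 0.630, 0.640 and 0.471 FPKM in controls and 1.02, 1.03 and 1.30 FPKM in CKO and passed (0.84, SE 0.14, adjusted p = 0.0559), also without overlap. Ifit1 lay below the filter at 0.398, 0.215 and 0.272 FPKM in controls and 0.554, 0.753 and 1.10 FPKM in CKO, also without overlap. Ifit2, the most abundant of the family, measured 2.66, 2.67 and 1.96 FPKM in controls and 2.39, 2.40 and 2.68 FPKM in CKO, and its groups overlapped (0.05, SE 0.13).

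The 2′-5′ oligoadenylate synthetases make the messenger that activates RNase L. Oasl2, a relative of these enzymes and the only 1 of the 5 listed above the filter, measured 0.552, 0.323 and 0.460 FPKM in controls and 1.09, 1.17 and 1.55 FPKM in CKO, a difference of 1.34 (SE 0.20, adjusted p = 0.0354). Oas1a was at 0.0659, 0.0746 and 0.208 FPKM in controls and 0.370, 0.319 and 0.541 FPKM in CKO, without overlap, and 57.6% of its 50-base words recur in other genes, Oas1g and Oas1b among them. Oas2 did not overlap either, at 0.0546 to 0.184 FPKM in controls and 0.229 to 0.300 FPKM in CKO. The groups of Oas3 and Oasl1 did overlap, and neither gene exceeded 0.169 FPKM in the Dnmt1 line.

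None of the interferon-induced GTPases, which attack viral capsids or the vacuoles of intracellular pathogens, passed in limma; of the 3 tested, 1 had an unadjusted p under 0.05. Gbp3, the most abundant, measured 1.46, 1.29 and 1.30 FPKM in controls and 1.68, 1.56 and 1.62 FPKM in CKO, without overlap (0.25, SE 0.07, adjusted p = 0.215). Mx2 differed by 0.21 (SE 0.14) and Gbp2 by 0.10 (SE 0.19), both with overlapping groups. Mx1 lay below the filter, at 0.101 to 0.133 FPKM in controls and 0.180 to 0.230 FPKM in CKO, without overlap.

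Both membrane factors rose. Bst2, or tetherin, which holds budding virions at the cell surface, measured 1.89, 2.10 and 2.35 FPKM in controls and 4.48, 3.91 and 4.44 FPKM in CKO, a difference of 0.99 (SE 0.10, adjusted p = 0.00952). Ifitm3, which blocks fusion of viruses in endosomes, was the most abundant member to rise, at 7.77, 7.61 and 6.28 FPKM in controls and 11.0, 11.9 and 10.8 FPKM in CKO (0.63, SE 0.09, adjusted p = 0.0332). The groups of neither gene overlapped. For Ifitm3, 10.02% of the 50-base words recur in other genes.

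Parp9 and its partner Dtx3l form a complex that joins ADP-ribose and ubiquitin to proteins, and the genes lie next to Parp14 on chromosome 16, between 35832874 and 35972605. Parp9 measured 0.646, 0.623 and 0.579 FPKM in controls and 1.01, 0.985 and 0.815 FPKM in CKO, a difference of 0.53 (SE 0.10, adjusted p = 0.0665). Dtx3l measured 0.675, 0.518 and 0.605 FPKM in controls and 0.726, 0.743 and 0.778 FPKM in CKO (0.29, SE 0.10, adjusted p = 0.256). Both were free of overlap between groups. The 2 genes share 9.40% and 8% of their exon bases on opposite strands, and whether the counting used strand is not given in the sources used here. Parp14, a mono-ADP-ribosyltransferase below the filter, measured 0.385, 0.320 and 0.310 FPKM in controls and 0.570, 0.536 and 0.653 FPKM in CKO, and it passed when all rows were tested (0.65, SE 0.11, adjusted p = 0.0895).

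The 2 members that handle double-stranded RNA inside the cell did not pass in limma, nor did either have an unadjusted p under 0.05. Adar, which edits adenosine to inosine in such RNA and has an isoform not induced by interferon, was by far the most abundant member and had the smallest fitted difference in size: 23.3, 23.1 and 23.7 FPKM in controls against 23.0, 23.1 and 23.6 FPKM in CKO (-0.01, SE 0.03). It shares 16.8% of its exon bases with Chrnb2 on the opposite strand. Eif2ak2, the kinase PKR that halts translation, measured 1.63, 1.29 and 1.62 FPKM in controls and 1.63, 1.79 and 1.74 FPKM in CKO (0.18, SE 0.11). Because Adar held 23.0 to 23.7 FPKM of the members' total in each library of the line, sums over the members were taken without it. That sum was 49.8 to 52.3 FPKM in the 3 Dnmt1 controls and 70.5 to 75.4 FPKM in the 3 CKO mice.

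Of the other 9 effectors, Rtp4 and Lgals3bp rose. Rtp4, a zinc-finger protein that chaperones receptors and binds viral RNA, measured 0.627, 0.645 and 0.658 FPKM in controls and 1.33, 1.47 and 1.43 FPKM in CKO, a difference of 1.02 with the smallest adjusted p of the members (SE 0.07, adjusted p = 0.00234). Lgals3bp, a secreted glycoprotein that binds galectins, measured 3.94, 3.09 and 3.71 FPKM in controls and 6.95, 7.60 and 7.45 FPKM in CKO (1.02, SE 0.10, adjusted p = 0.00790). Both roughly doubled, by 2.19-fold and 2.05-fold in mean FPKM, with no overlap. Rtp4, at chr16:23520291-23614222 on the plus strand, shares 13.9% of its exon bases with Gm45338 on the same strand, so part of its signal could be that gene's. Ifi44, an interferon-induced cytoplasmic protein below the filter, measured 0.138, 0.110 and 0.0760 FPKM in controls and 0.284, 0.318 and 0.350 FPKM in CKO, and it passed when all rows were tested (1.01, SE 0.13, adjusted p = 0.0462).

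The remaining effectors did not pass. The groups of Trim30a, a regulator of innate signalling (0.76, SE 0.17, adjusted p = 0.127), and of Ifi35 (0.46, SE 0.13, adjusted p = 0.192) did not overlap. Cmpk2, a mitochondrial nucleotide kinase and the most abundant of the 9, measured 7.70, 7.5 and 6.51 FPKM in controls and 7.56, 7.62 and 7.53 FPKM in CKO (0.07, SE 0.07). Its neighbour on chromosome 12, the antiviral enzyme gene Rsad2, was at 0.141 to 0.188 FPKM in controls and 0.175 to 0.313 FPKM in CKO, with overlap. Xaf1, a proapoptotic factor, differed by 0.29 (SE 0.13) and Samd9l, a growth regulator, by 0.03 (SE 0.11), both with overlapping groups. The row Ifi27l1 measured 7.02, 5.35 and 7.72 FPKM in controls and 14.0, 11.2 and 11.1 FPKM in CKO (0.85, SE 0.16, adjusted p = 0.0759); it is not counted among the members.

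**Figure D2:**
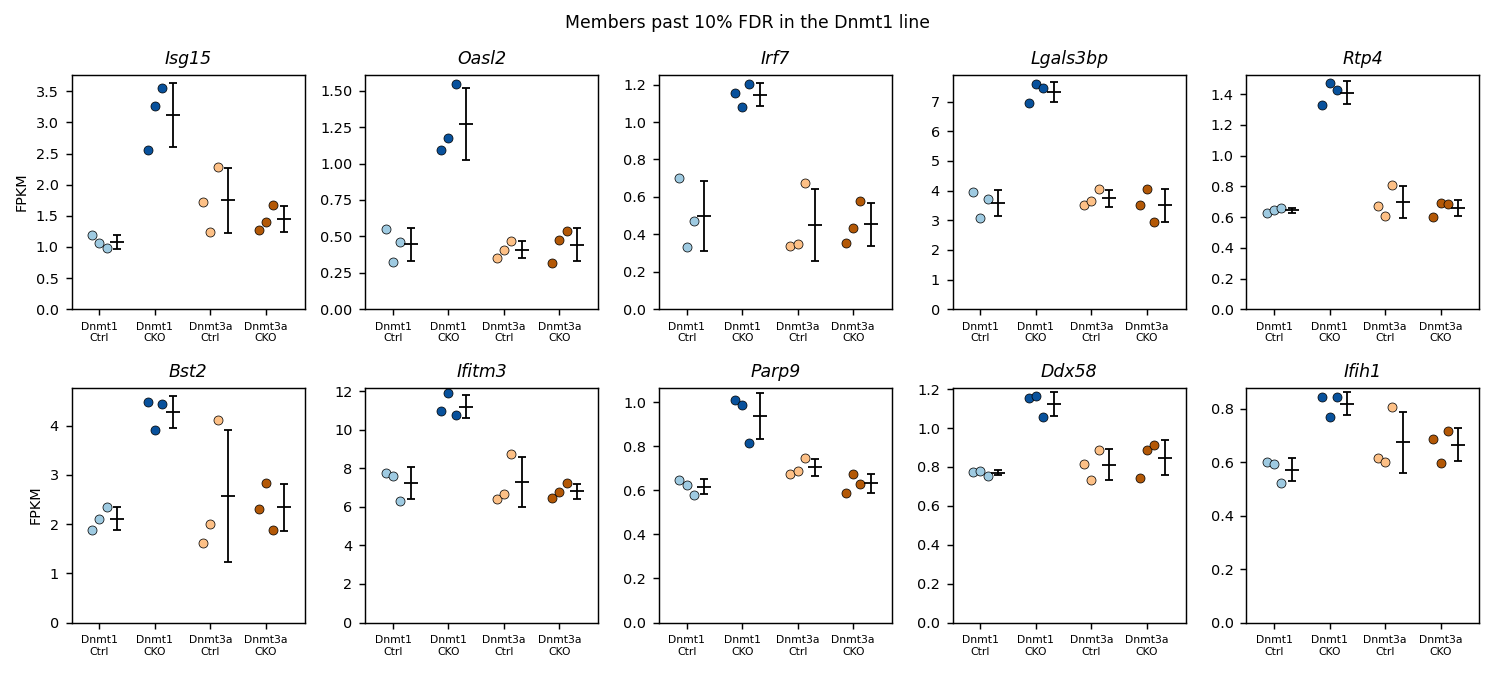
FPKM of the 10 members past 10% FDR in the Dnmt1 line, 1 panel per gene on its own axis from 0; each point is 1 library of the 4 groups (Ctrl, control), and the bar beside each group is its mean ± SD (n = 3). In every panel the 3 Dnmt1 CKO points lie above the 3 Dnmt1 control points, and the Dnmt3a groups overlap except for Parp9, where CKO lies below.

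From transcript length and the steps between low values, 1 fragment on a transcript of 1 kb was worth about 0.0234 to 0.0274 FPKM, so that Isg15 rested on about 28.9 to 112 fragments in a library, Rtp4 on 41.1 to 112 and Lgals3bp on 256 to 735, as an approximation. How far the calls hang on single mice was examined by leaving out each library of the line in turn. Ddx58, Isg15, Bst2, Rtp4 and Lgals3bp passed in all 6 such fits. The other 5 of the 10 each lost their call in some: without Dnmt1 CKO replicate 1, as without Dnmt1 control replicate 2, Ifih1, Irf7, Ifitm3 and Parp9 no longer passed and 6 of the 10 remained. Without CKO replicate 2, Irf7, Oasl2, Ifitm3 and Parp9 were lost, and without CKO replicate 3, Ifih1, Irf7, Oasl2 and Ifitm3 were lost, again leaving 6. Without control replicate 3, 7 remained (Irf7, Oasl2 and Parp9 lost), and without control replicate 1, 9 remained (Parp9 lost). The fitted differences of these genes stayed positive throughout. Over all rows tested, the calls in either direction fell from 444 to between 199 and 341 in these 6 fits, so the losses are not particular to the members.

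In Dnmt3a CKO cortex no member passed in either direction in limma, and of the 14115 rows tested 0.0142% did. A single member, Mx2, had an unadjusted p under 0.05, against 7.35% of all rows. It was lower in CKO, at 0.565, 0.604 and 0.527 FPKM in controls and 0.407, 0.433 and 0.469 FPKM in CKO (-0.31, SE 0.08, adjusted p = 0.657). The median difference over the 28 tested members was -0.05, with 10 positive and 18 negative, against 0.01 over all rows. Among the 40 members, none had all 3 CKO libraries above the controls (6.12% of all rows did) and 2, Mx2 and Parp9, had them all below (5.06% of all rows).

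The members that rose in the Dnmt1 line showed no such separation here. Isg15 measured 1.73, 1.23 and 2.28 FPKM in the Dnmt3a controls and 1.27, 1.40 and 1.67 FPKM in Dnmt3a CKO (-0.22, SE 0.23, adjusted p = 0.825). Rtp4 measured 0.670, 0.607 and 0.811 FPKM in controls and 0.602, 0.693 and 0.682 FPKM in CKO (-0.06, SE 0.12, adjusted p = 0.915), and Lgals3bp measured 3.51, 3.65 and 4.06 FPKM against 3.52, 4.06 and 2.94 FPKM (-0.10, SE 0.13, adjusted p = 0.866). Both overlapped. Of the 10, Parp9 alone did not overlap, at 0.675, 0.689 and 0.748 FPKM in controls and 0.589, 0.675 and 0.630 FPKM in CKO, where the highest CKO and the lowest control value round to the same 0.675 FPKM (-0.14, SE 0.08, adjusted p = 0.728).

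A single control library stood apart for these genes. Dnmt3a control replicate 3 was the highest of its group for 32 of the 40 members, and its sum without Adar was 59.8 FPKM, the highest of the line, while the other 5 libraries of the line did not exceed 51.1 FPKM. For Bst2 it measured 4.11 FPKM against 1.61 and 2.01 FPKM in the other controls, a level within the range of the Dnmt1 CKO libraries. Without that library the median difference in the Dnmt3a line was 0.03, and still no member passed.

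**Figure D3:**
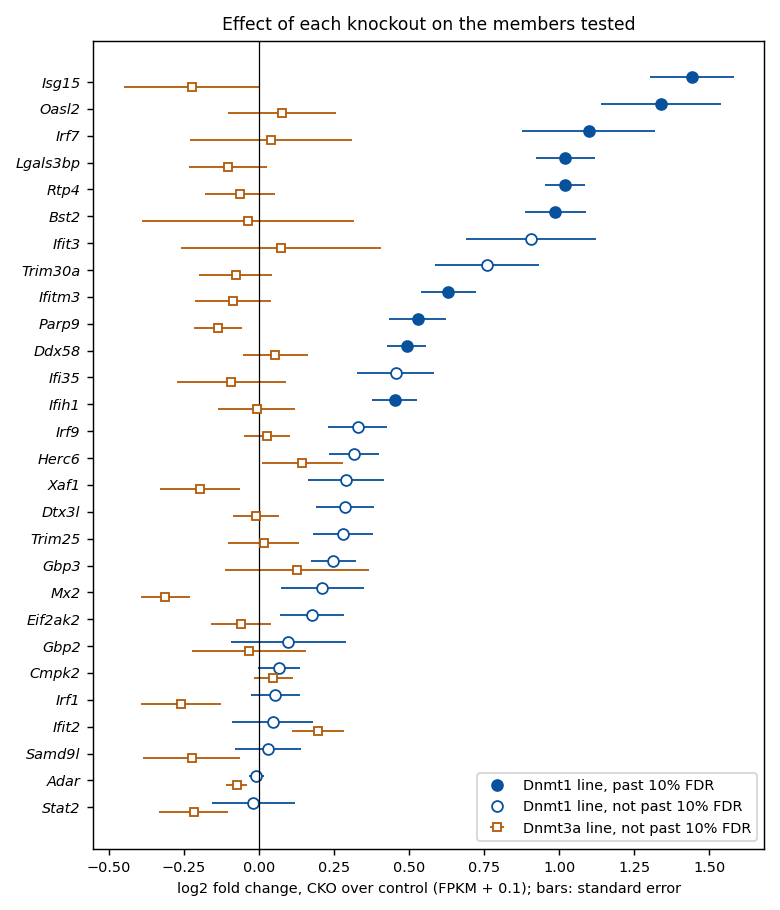
Fitted log2 fold change of CKO over control, on the log2(FPKM + 0.1) scale, for the 28 tested members in the Dnmt1 line (blue circles, filled where past 10% FDR) and the Dnmt3a line (brown squares, none past it); bars are standard errors, with 3 mice a group. The Dnmt1 values run from -0.02 for Stat2 to 1.44 for Isg15, and the Dnmt3a values from -0.31 for Mx2 to 0.20 for Ifit2.

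Whether the 2 knockouts differed in their effect was asked with an interaction term over all 12 libraries. It passed for 4 of the 28 tested members, each with the more positive effect in the Dnmt1 line, whereas 0.298% of all rows passed that way. Isg15 differed by 1.66 (SE 0.28, adjusted p = 0.0106), Lgals3bp by 1.12 (SE 0.16, adjusted p = 0.00467), Rtp4 by 1.08 (SE 0.18, adjusted p = 0.0104) and Ifitm3 by 0.72 (SE 0.16, adjusted p = 0.0567). The median of the interaction over the 28 was 0.45, against -0.03 over all rows. Isg15, Rtp4 and Lgals3bp passed whichever of the 12 libraries was left out, while Ifitm3 did not pass in the 7 fits without Dnmt1 control replicate 2 or 3, any of the 3 Dnmt1 CKO replicates, or Dnmt3a CKO replicate 1 or 2, where 3 of the 4 remained. The other 6 members that rose in the Dnmt1 line were not shown to differ between the lines. Bst2, for instance, had an interaction of 1.02 with an SE of 0.38 (adjusted p = 0.340), and Oasl2 of 1.26 with an SE of 0.32 (adjusted p = 0.112).

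Promoter letters and response were set side by side as a description. The core GAAANNGAAA was in 5 of the 8 called members with a promoter entry (Ddx58, Ifih1, Isg15, Bst2 and Ifitm3), in 6 of the 17 tested and not called, and in 4 of the 6 below the filter. The median Dnmt1 difference of tested members with the core was 0.49 (n = 11, from -0.02 to 1.44) and of those without it 0.29 (n = 14, from -0.01 to 1.34), ranges that overlap almost wholly. Irf7, Oasl2 and Lgals3bp rose and held no match in this window, while Stat2, which holds 1, had the lowest Dnmt1 difference of the 28.

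The rest of the pathway was followed with 104 further genes found of 106 listed, 56 of them tested. No ligand reached the filter. Of 19 interferon genes found, including Ifnb1, 9 were listed at 0 FPKM in all 12 libraries, where a 0 may also be a failed estimate, and 18 stayed under 0.1 FPKM throughout. The highest value of any ligand was 0.160 FPKM, for Ifna2 in Dnmt3a control replicate 3, the library that stood apart for the members. Ifna1, Ifna2, Ifna7 and Ifna11 were listed above 0 in that library and in no other of the Dnmt3a line. Ifna1 and Ifna11 did not exceed 0.0075 and 0.0054 FPKM in any library. In Dnmt3a control replicate 3, 1 fragment on a transcript of 1 kb was worth about 0.0251 FPKM. The values of Ifna1 and Ifna11 lay below that step and are therefore not separate detections of these genes. Whether Ifna2 and Ifna7 were detected apart from other genes cannot be told from the values, and no link to the members' levels was tested. None of the 12 tested genes of the receptor and its signalling passed in limma in either line (unadjusted p under 0.05 for 2 in the Dnmt1 line, 1 of them higher, and for 1 in the Dnmt3a line). The receptor chains Ifnar1 and Ifnar2 differed by 0.04 (SE 0.04) and 0.15 (SE 0.09) in the Dnmt1 line, and the kinases Jak1 and Tyk2 by -0.04 (SE 0.02) and -0.01 (SE 0.06).

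Upstream of the ligands, 1 of 17 tested genes rose in the Dnmt1 line, where 0.85% of all tested rows did. It was Tlr7, an endosomal receptor for single-stranded RNA expressed by microglia, at 0.627, 0.711 and 0.782 FPKM in controls and 0.970, 1.01 and 1.13 FPKM in CKO (0.50, SE 0.10, adjusted p = 0.0883). The adaptor Mavs (-0.07, SE 0.09), the factor Irf3 (-0.06, SE 0.13) and Tmem173, which encodes STING (0.16, SE 0.10), did not pass, and Mb21d1, which encodes cGAS, lay below the filter at 0.240 to 0.388 FPKM in controls and 0.284 to 0.515 FPKM in CKO. These 3 lists and the next were also tested in the Dnmt3a line, where limma called none of their 56 tested genes and 1 had an unadjusted p under 0.05.

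Of 27 tested further interferon-inducible genes, 2 rose in the Dnmt1 line and none fell, with a median difference of 0.29, and 20 of the 51 found had all CKO libraries above all controls, against 0.85% of tested rows higher and 6.92% of all rows with a mean above 0 separated. These genes and the members were not tested against each other. Pnpt1, an RNA-degrading exonuclease of mitochondria, measured 6.91, 6.74 and 7.04 FPKM in controls and 9.92, 9.79 and 9.80 FPKM in CKO (0.51, SE 0.04, adjusted p = 0.00282), and its interaction between the lines also passed (0.59, adjusted p = 0.00159). Tap1, the transporter of peptides for class I antigen presentation, measured 0.698, 0.544 and 0.507 FPKM in controls and 0.917, 0.863 and 0.932 FPKM in CKO (0.57, SE 0.11, adjusted p = 0.0936). Cxcl10, a chemokine induced by interferon and below the filter, was at 0.135, 0.135 and 0.0495 FPKM in controls and 0.404, 0.780 and 0.888 FPKM in CKO, without overlap; it was named after its values were seen.

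**Figure D4:**
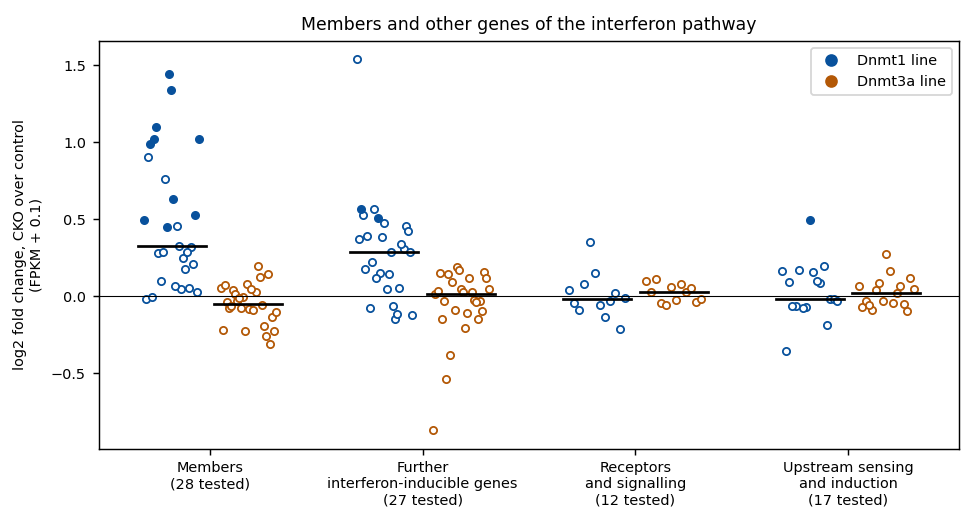
Fitted log2 fold change of CKO over control (log2(FPKM + 0.1) scale) for the 28 tested members and the tested genes of 3 other lists of the pathway, Dnmt1 line in blue and Dnmt3a line in brown; each point is a gene, filled where past 10% FDR, and the black line is the median. In the Dnmt1 line the medians are 0.32 for the members, 0.29 for the further interferon-inducible genes and -0.02 for each of the other 2 lists.

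The labelled tissue and its makeup were checked with marker lists. The 5 excitatory neuron markers summed to 501 to 581 FPKM in all 12 libraries. In the Dnmt1 line, where 2.3% of all rows fell, all 7 myelinating oligodendrocyte markers did. Their sum went from 1716 to 1998 FPKM in controls to 490 to 575 FPKM in CKO. Of 5 progenitor markers 4 fell, among them Olig1, the locus that carries cre, while Cspg4 differed by -0.0006 (SE 0.07). In the Dnmt3a line Olig1 measured 48.4, 49.8 and 44.1 FPKM in controls and 30.6, 38.8 and 32.2 FPKM in CKO. Its groups there did not overlap, though it did not pass (-0.49, SE 0.10, limma adjusted p = 0.657). Dnmt1 itself measured 10.6, 10.2 and 9.78 FPKM in the Dnmt1 controls and 7.26, 9.11 and 9.09 FPKM in Dnmt1 CKO (limma adjusted p = 0.286). Dnmt3a measured 31.1, 16.9 and 28.7 FPKM in the Dnmt3a controls and 13.6, 14.2 and 15.4 FPKM in CKO (adjusted p = 0.660), so the library labelled Dnmt3a control replicate 2 lay near the CKO level of the targeted gene. Without it no member passed in the Dnmt3a line and the same 4 passed the interaction.

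Cell types that could bring interferon-induced RNA of their own were followed beside the members in the Dnmt1 line. Of 10 microglia markers, C1qa and Trem2 rose, against 0.85% of all tested rows, and none fell. Itgam (-0.18, SE 0.08, adjusted p = 0.340) and Fcrls (-0.34, SE 0.12, adjusted p = 0.274) did not pass but had all CKO values below all controls. The microglia sums were 134 to 141 FPKM in controls and 137 to 148 FPKM in CKO. Of 5 astrocyte markers, Gfap rose, from 47.3 to 49.9 FPKM in controls to 64.6 to 70.1 FPKM in CKO. Aqp4 (-0.28, SE 0.07) and Gja1 (-0.11, SE 0.04) did not pass in limma but had all CKO values below all controls. Aldh1l1 and Slc1a3 overlapped. The astrocyte sums, Gfap included, were 292 to 297 FPKM in controls and 302 to 309 FPKM in CKO. No endothelial marker was called, and that list's sum was 72.4 to 78.7 FPKM in controls and 66.8 to 71.0 FPKM in CKO. The 8 lymphocyte markers summed to 0.891 to 2.49 FPKM in controls and 1.45 to 2.33 FPKM in CKO with overlap, and Cd3e, Cd3g and Ms4a1 stayed under 0.1 FPKM in all 12 libraries. The 7 monocyte and granulocyte markers summed to 7.72 to 10.9 FPKM in controls and 10.2 to 12.4 FPKM in CKO, also with overlap, and most of that sum was Ly6c2, at 6.78 to 9.46 FPKM in controls and 8.31 to 9.50 FPKM in CKO. Of the others, 3 had all CKO values above all controls: Lcn2 at 0.202 to 0.551 FPKM in controls and 0.717 to 1.17 FPKM in CKO, S100a9 at 0.156 to 0.286 and 0.340 to 0.658 FPKM, and Plac8 at 0.237 to 0.261 and 0.354 to 0.712 FPKM. Lcn2, a secreted iron-binding protein also made by reactive astrocytes, did not pass in the Dnmt1 line (1.40, SE 0.33, limma adjusted p = 0.136). Its interaction between the lines did pass (1.81, SE 0.41, limma adjusted p = 0.0640). However, Lcn2 reached the 0.5 FPKM mean required for testing only through the Dnmt1 CKO libraries. Its means were 0.336, 0.441 and 0.305 FPKM in Dnmt1 controls, Dnmt3a controls and Dnmt3a CKO. Ccr2, Ngp and S100a8 overlapped. Single markers that did not pass are named here after their values were seen. Erythroid markers summed to 16.7 to 28.1 FPKM in controls and 9.27 to 15.3 FPKM in CKO, without overlap, and Hba-a1, Hbb-b1 and Alas2 were each lower in every CKO library than in every control, though none passed (adjusted p from 0.127 to 0.254). The astrocyte and endothelial sums did not overlap, higher and lower in CKO respectively. Of the astrocyte list, however, only Gfap had all CKO values above all controls, and Aqp4 and Gja1 were lower. Choroid plexus markers varied from 3.21 to 419 FPKM between the 12 libraries, with ranges of 119 to 275 FPKM in Dnmt1 controls and 84.5 to 248 FPKM in CKO. The members' sum without Adar, at 49.8 to 52.3 FPKM against 70.5 to 75.4 FPKM, did not overlap; the part of any cell type in it was not tested.

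**Figure D5:**
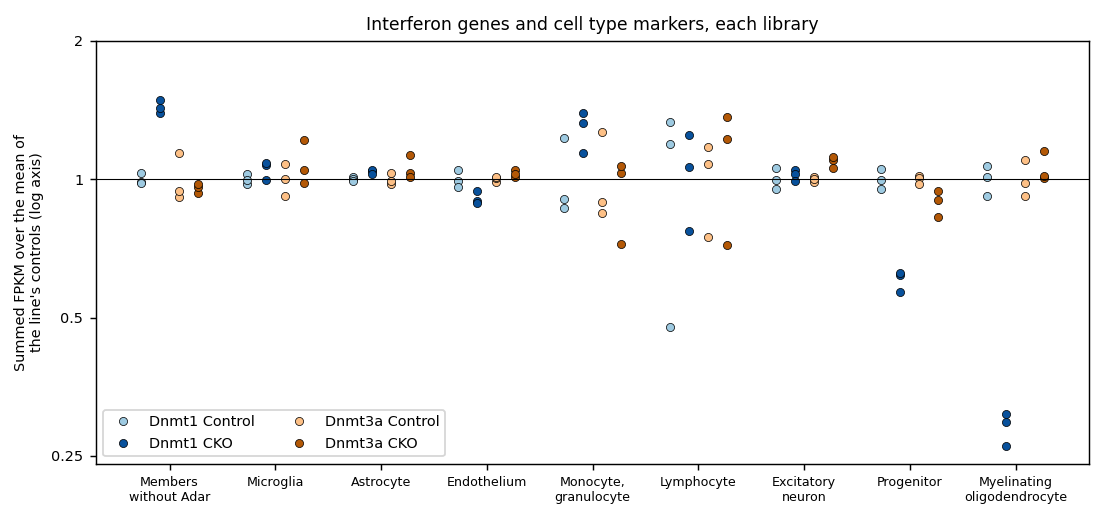
Summed FPKM of the members without Adar and of 8 marker lists in each library, divided by the mean of the same line's controls, on a log axis; points are libraries, light for controls and dark for CKO, blue for the Dnmt1 line and brown for the Dnmt3a line. The Dnmt1 CKO points lie above the controls for the members, far below them for myelinating oligodendrocyte markers and less far below them for progenitor markers, while for microglia they overlap the controls.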

How the data were processed

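Polyadenylated RNA of 12 cortices was sequenced, with 3 libraries in each of 4 groups. The authors quantified expression and deposited FPKM values per gene symbol; per the labels Cufflinks and mm10 were used. The alignments, read totals and strand setting are not given in the sources used here, so no counting error was computed. Whole fragments could not be recovered for nearly all genes, but steps between low values put relative depth at 0.855 to 1, with 68.1% to 74.9% of low values within 0.1 of a whole step. Summed FPKM ran from 342274 to 417856 per library.

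Of 23850 rows, 302 exact duplicates were removed. The 14115 rows whose mean reached 0.5 FPKM were tested as log2(FPKM + 0.1) with limma 3.58.1 (R 4.3.3; eBayes with a mean-variance trend), each CKO against its own line's controls and the difference between lines as an interaction over all 12 libraries, with Benjamini-Hochberg adjustment and 10% FDR. Called means past that threshold. For members below the filter no test was made except where all rows were tested; an exact permutation test of 3 against 3 cannot go below 0.1. On simulated data of 14115 genes, the Dnmt1 comparison recovered 79.1% of changes of 0.5, 95.5% of 1 and 100% of 2 (log2). It also called 20 unchanged genes. The 200 changed genes were drawn from all expression levels, so recovery at the low levels of most members was not measured. The 3 mice of a group are labelled as biological replicates. All columns were used (0 left out).

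Values in every library are given for members called in any comparison and for the most abundant of each role group; from other lists, genes called and a fixed set of genes are named; some results are not reported here. Members and lists were chosen with earlier results of these data known. Alternatives covered the pseudocount, filter, scaling, trend, model, a replicate block, an Xist covariate and leaving out each library. Transcript annotation was GENCODE's release on GRCm38, and sequences came from RefSeq.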

Additional observations from a re-analysis of the deposited data

Results flagged for a closer look

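For 4 members the effect of the knockout differed between the lines by a test of the difference itself (limma interaction over 12 libraries, 10% FDR, adjusted p from 0.00467 to 0.0567). The Dnmt1 effect exceeded the Dnmt3a effect by 1.66 for Isg15, by 1.12 for Lgals3bp, by 1.08 for Rtp4 and by 0.72 for Ifitm3 (log2). For each, all 3 Dnmt1 CKO libraries lay above their controls, and the Dnmt3a groups overlapped.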

How the results depend on the processing

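Against 10 members called in the Dnmt1 line, 9 to 12 were called with a pseudocount of 1 or 0.01, a 0.1 FPKM filter, no filter, median-ratio scaling, no trend, a single model of 12 libraries or an Xist covariate, and 6 to 9 with 1 library left out. With the replicate block 5 were called (Isg15, Bst2, Ifitm3, Rtp4 and Lgals3bp). Same-numbered libraries did not deviate together (r from -0.0609 to 0.0352 in the Dnmt1 line and from -0.0792 to 0.0182 in the Dnmt3a line). The labels do not say whether they share a litter or batch, and these correlations cannot decide it. The median Dnmt1 difference of 0.32 was 0.20 with a pseudocount of 1, 0.45 with the 0.1 FPKM filter or none, and 0.29 to 0.38 with 1 library left out. A larger pseudocount damps low genes by construction, and a lower filter adds low genes. In the Dnmt3a line 0 were called under every alternative run, and its median of -0.05 ran from -0.0934 to 0.0320 with 1 library left out, the positive value coming without Dnmt3a control replicate 3; the cause was not tested. The interaction gave 4 to 6 calls under the alternatives and 3 to 5 with 1 library left out. Of the fitted values of called genes under alternatives, 190 kept their side of the threshold, 40 lost it and 0 changed sign. Levels under 0.5 FPKM set the limit for 12 members, where the pseudocount shrinks any change.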
